A study of Mus musculus with 12 samples.

Results

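The 9 genes described here encode the transporters that carry calcium out across the plasma membrane: the sodium/calcium exchangers Slc8a1, Slc8a2 and Slc8a3, the potassium-dependent sodium/calcium exchangers Slc24a2 and Slc24a3, and the plasma membrane calcium ATPases Atp2b1, Atp2b2, Atp2b3 and Atp2b4. They were chosen by gene symbol, and all 9 were found among the 24079 genes of the deposited count table and among the 17823 that had at least 15 reads over the 12 libraries. The libraries hold ribosome-bound mRNA from the whole hippocampus of adult male C57BL/6J mice aged 2 to 6 months, 6 libraries from wild-type (WT) mice and 6 from Fmr1-/y mice, in which the X-linked gene for the RNA-binding protein FMRP is inactivated. Animals of both genotypes carried RiboTag, a Cre-dependent HA-tagged form of the ribosomal protein Rpl22, and the Wfs1-CreERT2 transgene, which directs the tamoxifen-dependent recombinase to cells expressing Wfs1, mainly CA1 pyramidal neurons. Both received tamoxifen for 3 days and tissue was taken 1 week later, tagged ribosomes were immunoprecipitated with the HA tag, and each library was made from a pool of 4 to 6 mice. No untagged or input library was analysed here, so a level below is that of the precipitate, and fewer tagged cells cannot be told apart from less mRNA per cell.

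Calcium that enters a pyramidal neuron through receptors and voltage-gated channels is removed at the surface by exchangers and by pumps. The exchangers use the inward gradient of sodium, and in the Slc24 family also the outward gradient of potassium, to clear large calcium loads quickly. The pumps spend ATP, bind calcium with high affinity, are activated by calmodulin and hold the resting concentration low; basigin and neuroplastin are their membrane partners.

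Depth ranged from 39400980 to 55745464 gene-assigned reads in WT and from 43106629 to 65565479 in Fmr1-/y libraries. Fmr1 itself had 1971 to 2608 reads per WT library and at most 1 read per Fmr1-/y library. Levels are given as CPM, the read count of a gene relative to its library's total after TMM scaling (edgeR's cpm). Tests are edgeR quasi-likelihood tests with Benjamini-Hochberg adjustment over all 17823 genes, and fold changes are log2 of Fmr1-/y over WT with their standard error (SE).

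No member passed the adjusted threshold of 0.05 in edgeR, against a background of 0.0224% of all genes called lower and 0% called higher. At an unadjusted p under 0.05, 3 of the 9 members were lower in Fmr1-/y libraries and 0 were higher, beside 3.67% of all genes lower and 4.29% higher (7.96% in both directions). Those 3 were 1 member of each family, Slc8a1, Slc24a3 and Atp2b1. Members were chosen with earlier results of these data known, so their counts are not those of a neutral draw of genes. The 3 also varied together between libraries of the same genotype (Pearson r of 0.69 to 0.92), so they are not separate observations. The fitted change was below 0 for 8 of 9 members, beside 8670 of the 17823 genes tested. Its median was -0.10, beside 0 over all genes tested. The genotypes overlapped for every member, and 0.41% of all genes were lower and 0.213% higher without overlap. In DESeq2, 1 member passed the adjusted threshold, Slc8a1, beside 0.571% of all genes tested.

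The sequences just upstream of these 3 genes are shown because their mRNAs were the lowest in Fmr1-/y relative to WT. They are from RefSeq on GRCm38.p6, each printed 5′ to 3′ on the strand of the gene and ending at the base before it. Capitals mark the string CCCGCC on either strand, which reads GGCGGG where it lies on the other strand.

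Slc8a1 (chr17:81738388-81738637, minus strand): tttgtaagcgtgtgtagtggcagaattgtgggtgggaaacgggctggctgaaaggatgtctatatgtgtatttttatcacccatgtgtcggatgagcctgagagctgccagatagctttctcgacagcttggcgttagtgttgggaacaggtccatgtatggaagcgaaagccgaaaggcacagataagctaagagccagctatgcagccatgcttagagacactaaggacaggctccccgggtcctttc
Slc24a3 (chr2:145167525-145167774, plus strand): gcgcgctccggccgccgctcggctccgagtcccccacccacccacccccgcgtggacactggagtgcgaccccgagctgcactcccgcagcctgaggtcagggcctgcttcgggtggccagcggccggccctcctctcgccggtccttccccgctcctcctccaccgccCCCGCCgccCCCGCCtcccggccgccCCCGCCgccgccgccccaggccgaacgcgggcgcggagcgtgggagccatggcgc
Atp2b1 (chr10:98914392-98914629, plus strand): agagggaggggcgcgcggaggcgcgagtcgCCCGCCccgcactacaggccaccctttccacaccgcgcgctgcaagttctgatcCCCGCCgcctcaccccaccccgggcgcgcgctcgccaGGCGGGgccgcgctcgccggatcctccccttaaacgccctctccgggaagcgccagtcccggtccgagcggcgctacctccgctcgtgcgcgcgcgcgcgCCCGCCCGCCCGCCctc

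The 3 windows differ in base composition. That of Slc8a1 spans 250 bases, is 50.4% G and C, and holds 8 CG dinucleotides and 0 copies of CCCGCC. That of Slc24a3 spans 250 bases, is 80.8% G and C, and holds 35 CG dinucleotides and 3 copies. The 238 bases of Atp2b1 are 78.2% G and C, with 41 CG dinucleotides and 6 copies, some of them overlapping. Over 32851 RefSeq promoter windows of 250 bases from 27025 genes, the median is 52.4% G and C and 6 CG dinucleotides, and 32.5% hold CCCGCC. That set was not limited to windows outside the gene, unlike the 3 printed here. The window of Slc8a1 is thus near the median of all genes, and the other two are far richer in CG dinucleotides. Windows were found for 8 of 9 members, 13 in all, and these letters alone do not show a binding site. Slc24a3 and Atp2b1 each have a further window, inside the gene and not printed. It is 63.6% G and C with 0 copies of CCCGCC for Slc24a3, and 80.8% with 4 copies for Atp2b1.

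Slc8a1 encodes NCX1, the exchanger best known from heart muscle and also made in neurons. The gene (Entrez 20541) spans chr17:81373105-81738387 on mm10. Its level in the WT libraries was 277 at the lowest, 312 at the median and 337 CPM at the highest. In the Fmr1-/y libraries the corresponding values were 234, 258 and 297 CPM. All but 1 Fmr1-/y library lay below the lowest WT library: Fmr1-/y 6, at 297 CPM, exceeded WT 6, at 277 CPM. The mean was 308 ± 19.9 CPM in WT and 259 ± 23 CPM in Fmr1-/y (SD, n = 6 each), so the Fmr1-/y level was 83.9% of WT. The log2 fold change was -0.25 (SE 0.07, 95% interval -0.39 to -0.12), with an edgeR p of 0.0012 and an adjusted p of 0.273. Slc8a1 ranked 80 of all genes by p.

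The call for Slc8a1 depended on the tool and on single libraries. DESeq2 gave a log2 fold change of -0.26 with an adjusted p of 0.047, and with each of the 12 libraries left out in turn this adjusted p ranged from 0.0053 to 0.232. It stayed under 0.05 in 2 of those 12 fits, without Fmr1-/y 6 (0.0053) or without WT 6 (0.016), the only pair of libraries that overlap. Without any other library it was 0.058 or above. Over the 22 alternatives, which include DESeq2 and limma voom beside edgeR fits, the unadjusted p was 0.012 or below, and the fold change lay between -0.30 and -0.19.

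**Figure D1:**
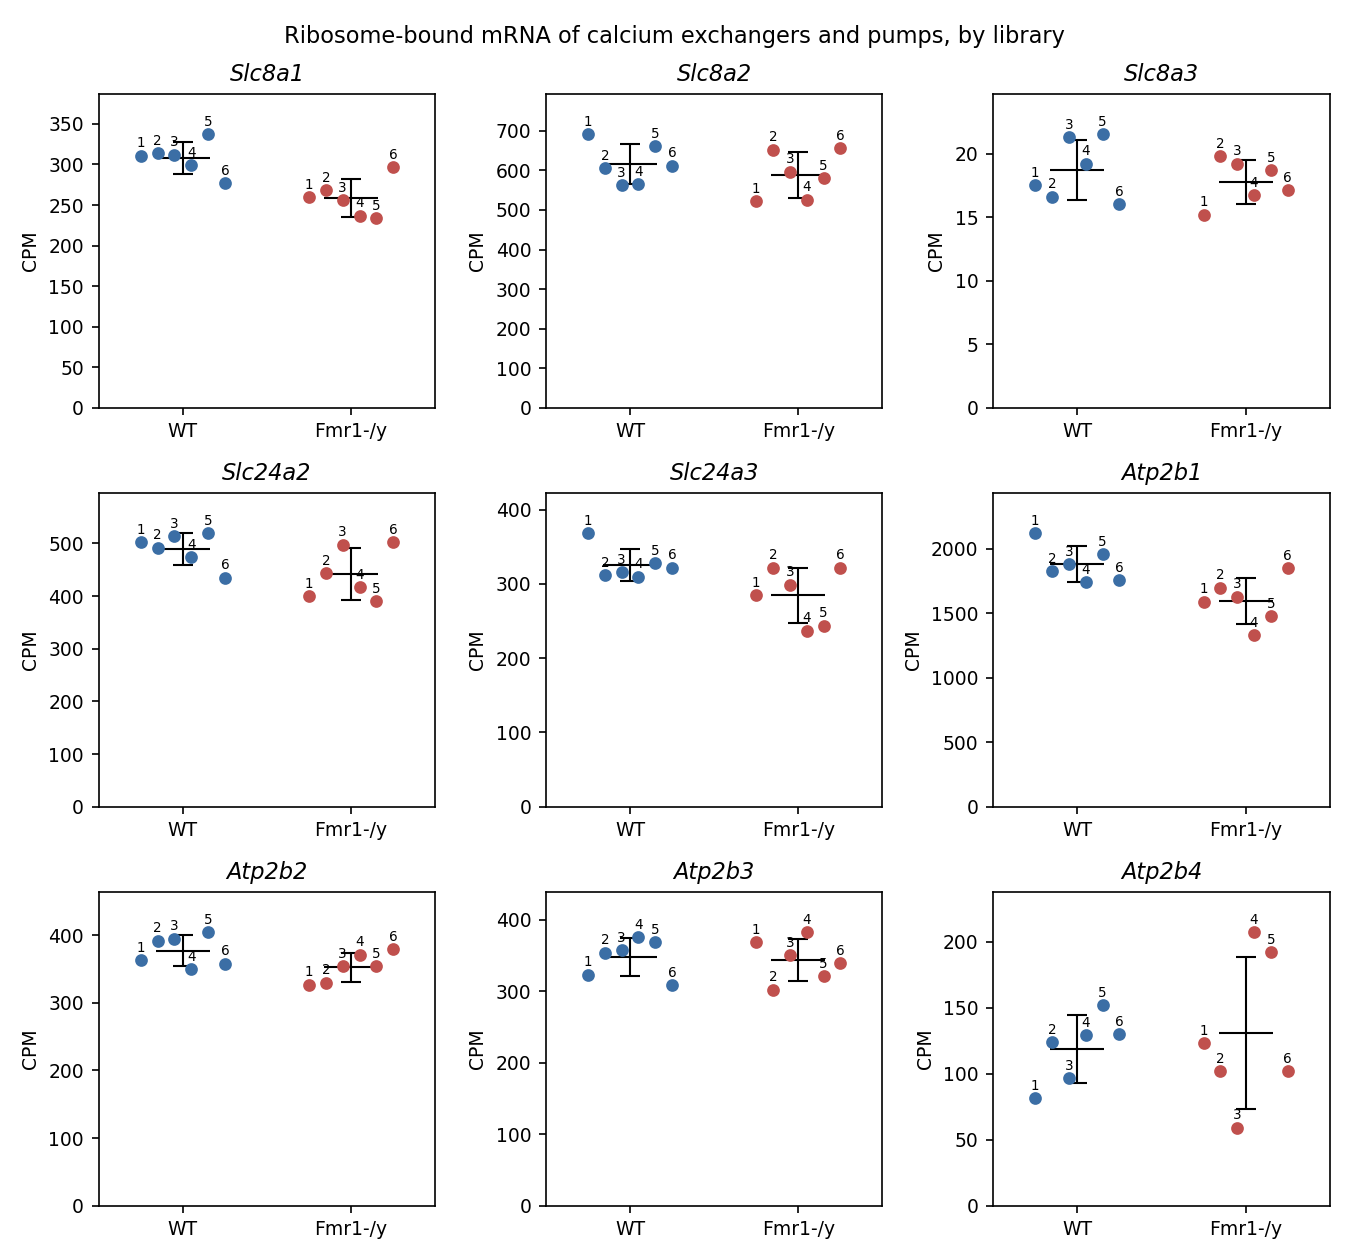
CPM of each member in each library, with its replicate number, by genotype; the black line and bar are the mean and SD of 6 libraries, and every axis starts at 0. For Slc8a1, 5 of 6 Fmr1-/y libraries sit below all WT libraries, while for Atp2b4 the Fmr1-/y libraries spread from 59.1 to 207 CPM.

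Slc8a2 encodes NCX2, an exchanger found mainly in brain, and Slc8a3 encodes NCX3, of brain and skeletal muscle. Slc8a2 (Entrez 110891, chr7:16127592-16161063) measured 562, 609 and 691 CPM in WT and 522, 589 and 656 CPM in Fmr1-/y libraries (lowest, median, highest). The log2 fold change was -0.07 (SE 0.07, 95% interval -0.22 to 0.09, edgeR adjusted p = 0.896). Slc8a3 (Entrez 110893, chr12:81197915-81333732) measured 16, 18.4 and 21.5 CPM in WT and 15.2, 17.9 and 19.8 CPM in Fmr1-/y libraries. Neither separated the genotypes, and the interval of Slc8a3 (-0.28 to 0.13, adjusted p = 0.922 in edgeR) leaves room for a change as large as that of Slc8a1. Within a library, the log2 ratio of Slc8a1 to Slc8a2 was -1 ± 0.12 in WT and -1.19 ± 0.11 in Fmr1-/y (SD, n = 6), and 3 of 6 Fmr1-/y libraries lay below the lowest WT ratio.

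Both potassium-dependent exchangers are made in brain, and Slc24a2 (NCKX2) is known for calcium clearance at axons and synapses. Slc24a2 (Entrez 76376, chr4:86983124-87230652) measured 435, 497 and 519 CPM in WT and 390, 431 and 503 CPM in Fmr1-/y libraries. Its log2 fold change was -0.15 (SE 0.07, 95% interval -0.30 to 0.00), with an unadjusted p of 0.056 and an adjusted p of 0.636 in edgeR. Fmr1-/y libraries 2, 3 and 6 lay among the WT values and the other 3 lay below the lowest WT library.

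Slc24a3 encodes NCKX3 (Entrez 94249, chr2:145167775-145642166). It measured 310, 319 and 368 CPM in WT and 237, 292 and 322 CPM in Fmr1-/y libraries. Fmr1-/y libraries 4 and 5 were the lowest, at 237 and 244 CPM, WT 1 stood above all others, and 4 of 6 Fmr1-/y libraries were below every WT library. The mean was 326 ± 21.5 CPM in WT and 285 ± 37.3 CPM in Fmr1-/y. The log2 fold change was -0.19 (SE 0.08, 95% interval -0.36 to -0.03), with an unadjusted p of 0.026 and an adjusted p of 0.539 in edgeR. The unadjusted p was 0.064 without Fmr1-/y 4, 0.067 without Fmr1-/y 5 and 0.067 without WT 1. Without both Fmr1-/y 4 and 5, a choice made after their values were seen, the fold change was -0.09 with an unadjusted p of 0.21.

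Atp2b1 encodes PMCA1, the most widely made of the pumps (Entrez 67972, chr10:98914630-99026143). The WT libraries measured 1740, 1850 and 2120 CPM, and the Fmr1-/y libraries 1330, 1610 and 1850 CPM. Only Fmr1-/y 6 reached the WT values and the other 5 lay below the lowest WT library. The mean was 1880 ± 142 CPM in WT and 1600 ± 182 CPM in Fmr1-/y, or 85% of WT. The log2 fold change was -0.23 (SE 0.08, 95% interval -0.39 to -0.07), with an unadjusted p of 0.0068 and an adjusted p of 0.394 in edgeR and 0.183 in DESeq2. Without Fmr1-/y 4 and 5 it was -0.15 with an unadjusted p of 0.054.

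Atp2b2 and Atp2b3 encode PMCA2 and PMCA3, the fast pumps made largely in neurons. Atp2b2 (Entrez 11941, chr6:113743831-114042613) measured 350, 377 and 404 CPM in WT and 327, 354 and 379 CPM in Fmr1-/y libraries. Its log2 fold change was -0.10 (SE 0.06, 95% interval -0.22 to 0.02, edgeR adjusted p = 0.734). Atp2b3 (Entrez 320707, chrX:73502749-73573275) measured 308, 356 and 375 CPM in WT and 302, 344 and 382 CPM in Fmr1-/y libraries. The genotypes overlapped for both. For Atp2b2, 2 Fmr1-/y libraries lay below the lowest WT library and 3 WT libraries above the highest Fmr1-/y library. The change of Atp2b3, -0.02 (95% interval -0.16 to 0.13, edgeR adjusted p = 0.983), was the nearest to 0 of the 9 members. It turned to 0.01 when libraries were scaled by their totals alone.

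Atp2b4 encodes PMCA4 (Entrez 381290, chr1:133702674-133801059), and its level varied between libraries far more than that of the other members. It measured 81.5, 127 and 152 CPM in WT and 59.1, 113 and 207 CPM in Fmr1-/y libraries. Fmr1-/y 4 and 5, at 207 and 192 CPM, were above all WT libraries, and Fmr1-/y 3, at 59.1 CPM, was below them all. The coefficient of variation was 21.5% in WT and 43.8% in Fmr1-/y, beside medians of 7.58% and 8.81% over the 4448 genes with a mean of at least 50 CPM. Among those genes, 9 had a higher coefficient in Fmr1-/y libraries and 66 a higher one in WT. The log2 fold change was 0.14 (SE 0.23, 95% interval -0.35 to 0.63, edgeR adjusted p = 0.94), and it turned to -0.30 with an unadjusted p of 0.114 when Fmr1-/y 4 and 5 were left out. No direction can therefore be given for Atp2b4 in these libraries.

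**Figure D2:**
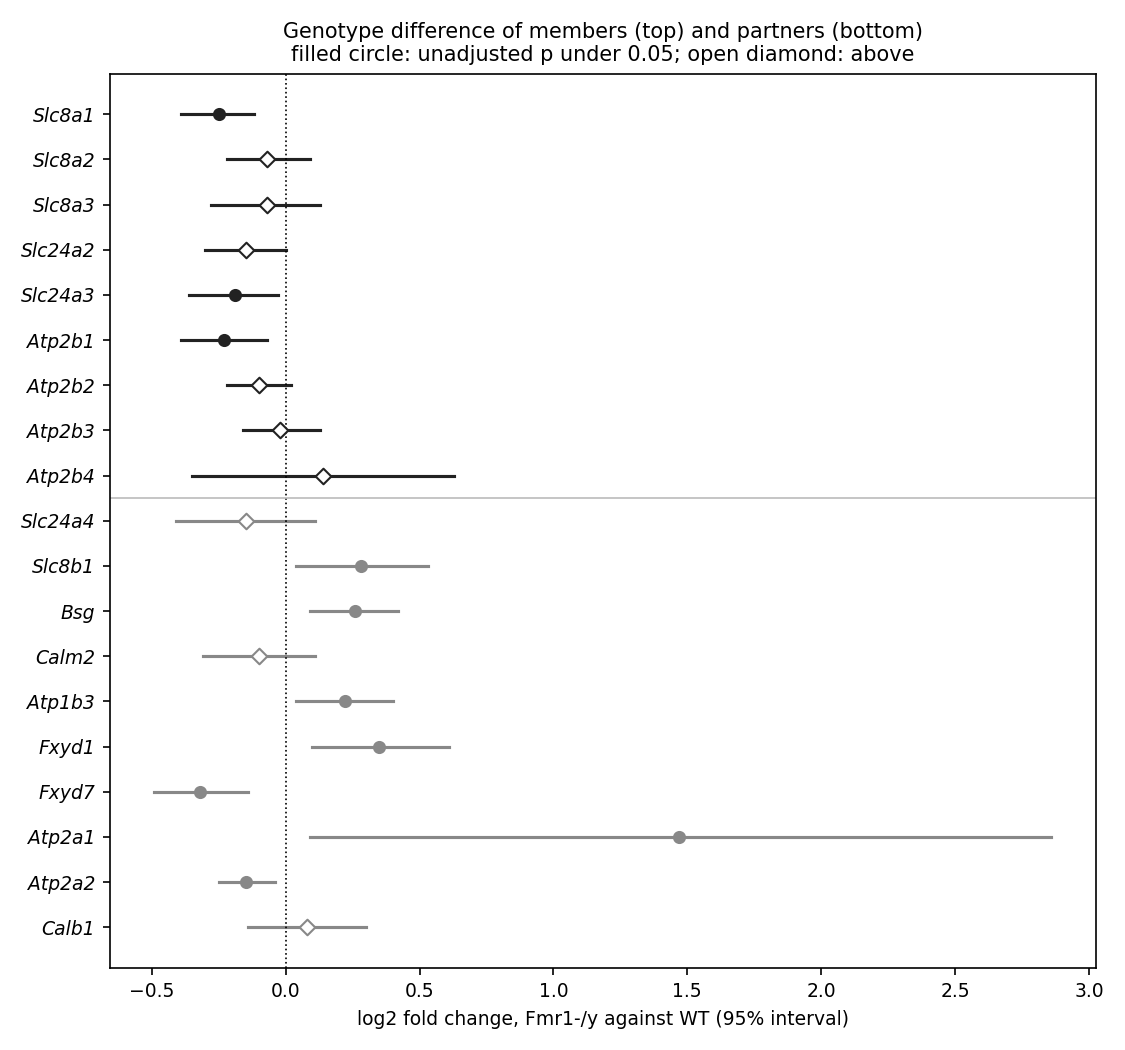
Log2 fold change of Fmr1-/y against WT for the 9 members (black, top) and 10 genes of the pathway lists (grey, bottom), with the 95% interval of the edgeR fit; filled circles mark an unadjusted p under 0.05. The intervals of Slc8a1, Slc24a3 and Atp2b1 lie below 0 and that of Atp2b4 is the widest of the members, from -0.35 to 0.63.

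To compare levels between genes, CPM was divided by the length of all annotated exons of a gene in kilobases (GENCODE vM21, mm10). Atp2b1 was the highest in WT libraries, at 264 ± 19.9 CPM per kilobase (SD, n = 6). Slc8a2 followed at 117 ± 9.80, Slc24a3 at 80.5 ± 5.34, Atp2b3 at 72.1 ± 5.47, Slc24a2 at 45.7 ± 2.90 and Atp2b2 at 39.7 ± 2.38 CPM per kilobase. Slc8a1 had 16.6 ± 1.06, Atp2b4 had 9.96 ± 2.14 and Slc8a3 had 3.69 ± 0.467 CPM per kilobase. Slc24a3 and Atp2b3 overlapped in this order, as did Slc24a2 and Atp2b2, and the other neighbours had ranges that did not overlap in WT. In Fmr1-/y libraries these pairs overlapped too, and so did Slc8a1 (12.6 to 16) and Atp2b4 (4.95 to 17.4).

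That order depended on the length used. The exons of Slc8a1 sum to 18.6 kb, of which the longest coding sequence is 2.91 kb. Per kilobase of coding sequence Slc8a1 had 106 ± 6.77 CPM in WT and overlapped with Atp2b2 at 101 ± 6.07 and Atp2b3 at 94.9 ± 7.2. Atp2b1 was still the highest, at 514 ± 38.7, and Slc8a3 the lowest, at 6.71 ± 0.85. Slc24a2, at 229 ± 14.6, drew level with Slc8a2, at 223 ± 18.7 CPM per kilobase. Reads were counted over whole exons, so neither scale gives molecules per cell.

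As shares of their families per kilobase of all exons, Atp2b1 made up 68.4% ± 2.3 of the 4 pumps in WT and 65.1% ± 4.2 in Fmr1-/y libraries (SD, n = 6). Atp2b3 made up 18.7% ± 1.6 and 20.8% ± 2.4, Atp2b2 10.3% ± 0.56 and 10.8% ± 0.81, and Atp2b4 2.60% ± 0.59 and 3.25% ± 1.6. Among the 3 sodium/calcium exchangers Slc8a2 accounted for 85.2% ± 1.2 in WT and 86.5% ± 0.66 in Fmr1-/y. Slc8a1 accounted for 12.1% ± 0.85 and 10.8% ± 0.76, and on coding length for 31.6% ± 1.8 and 28.9% ± 1.6. Each of these ranges overlapped between genotypes.

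**Figure D3:**
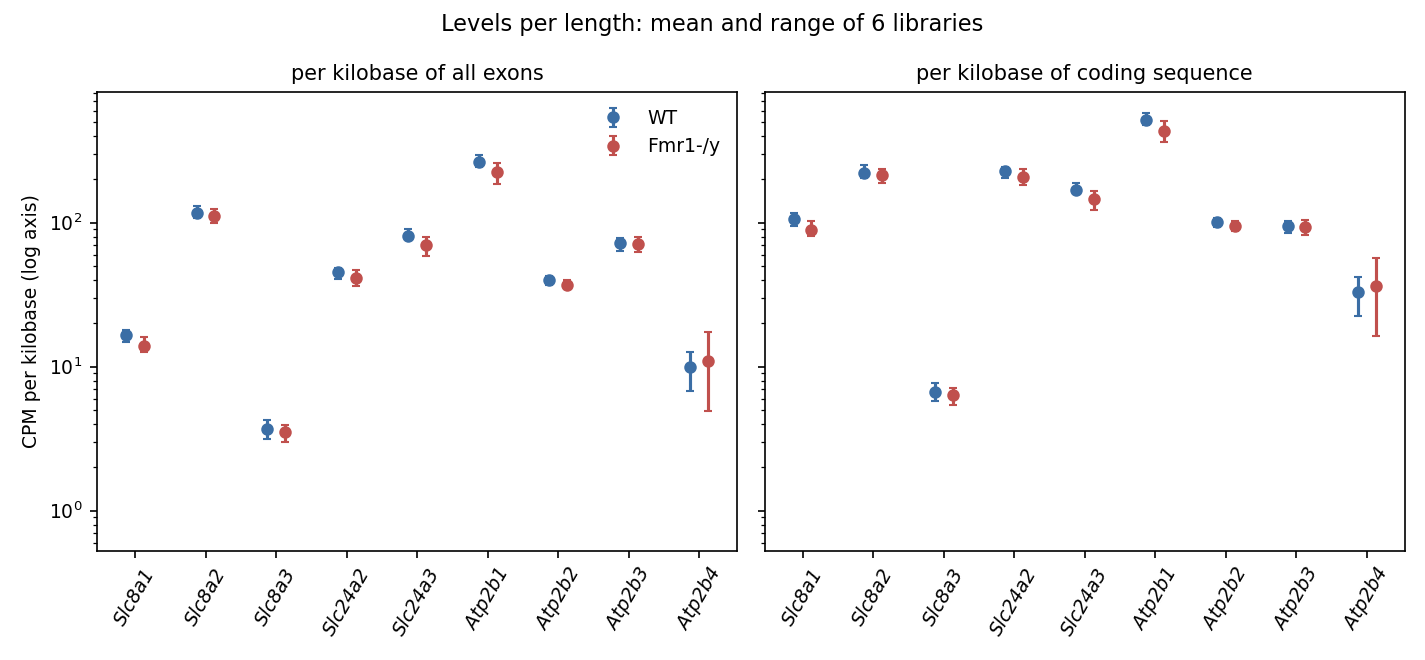
Mean and range over 6 libraries of CPM per kilobase, on a log axis, for each member in WT and Fmr1-/y, with all exons (left) or coding sequence (right) as the length. Atp2b1 is the highest and Slc8a3 the lowest on both, while Slc8a1 moves from 16.6 to 106 CPM per kilobase in WT.

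Members differed in how they varied between libraries of the same genotype. After the genotype means were removed, Atp2b1 and Slc24a3 had a Pearson r of 0.92 over the 12 libraries, Atp2b1 and Slc8a1 0.81, Atp2b1 and Slc8a2 0.78, and Slc8a1 and Slc24a2 0.77. These 5 genes formed a block of positive values, while Atp2b4 ran against them, with r of -0.76 to Slc24a3 and -0.66 to both Atp2b1 and Slc24a2. Atp2b3 ran against Slc8a2 (-0.62). The highest r of Atp2b2 and of Slc8a3 to any member was 0.51 and 0.46, both to Slc24a2. Within the block the lowest r was also 0.51, between Slc8a2 and Slc24a2. These are descriptions over 12 points that share the library, its depth and its cell composition.

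Most of this block also followed the CA1 pyramidal markers (Wfs1, Slc1a1, Camk2a, Neurod6, Fibcd1 and Pou3f1), whose mean log2 CPM is taken as the score of a library. With genotype means removed, r to that score was 0.93 for Atp2b1, 0.89 for Slc24a3, 0.85 for Slc8a2, 0.59 for Slc8a1, 0.48 for Slc24a2, -0.64 for Atp2b4 and -0.66 for Atp2b3. The score was 0.16 lower in Fmr1-/y than in WT libraries (8.93 against 9.09, exact permutation test, two-sided, p = 0.121, adjusted p over 9 marker lists 0.222, smallest possible p 0.0022). Fmr1-/y 4 had the lowest score, 8.62. The change was below 0 for 6 of 6 markers, the summed CPM of the list was 7580 to 9310 in WT and 7270 to 8660 in Fmr1-/y libraries, and Wfs1, whose promoter sequences drive Cre, stood at 82.9% of WT (edgeR unadjusted p = 0.0083).

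With the CA1 score as a covariate, an alternative added after the data were seen, the log2 fold change was -0.19 for Slc8a1 (unadjusted p = 0.0073), -0.11 for Atp2b1 (0.032) and -0.07 for Slc24a3 (0.233). The differences of Atp2b1 and Slc24a3 were both smaller by more than 1.5 times, and the unadjusted p of Slc24a3 was no longer under 0.05. In this edgeR fit the adjusted p was 0.412, 0.453 and 0.651 for Slc8a1, Atp2b1 and Slc24a3. As the mean score was itself lower in Fmr1-/y libraries, this fit cannot separate cell composition from genotype. Relative to Camk2a in the same library, the log2 level of Slc8a1 was -4.33 ± 0.07 in WT and -4.50 ± 0.10 in Fmr1-/y (SD, n = 6). Relative to Wfs1 it was -2.03 ± 0.20 and -2.03 ± 0.18, so the genotype difference seen against Camk2a was not seen against Wfs1. Atp2b1 gave the same picture, -1.73 ± 0.04 and -1.87 ± 0.13 against Camk2a, and 0.57 ± 0.19 and 0.60 ± 0.20 against Wfs1. These outcomes follow from the marker chosen, as the edgeR log2 fold change was -0.27 for Wfs1 and -0.09 for Camk2a. The other CA1 markers lay between -0.19 (Neurod6) and -0.05 (Slc1a1) and were not used as references.

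**Figure D4:**
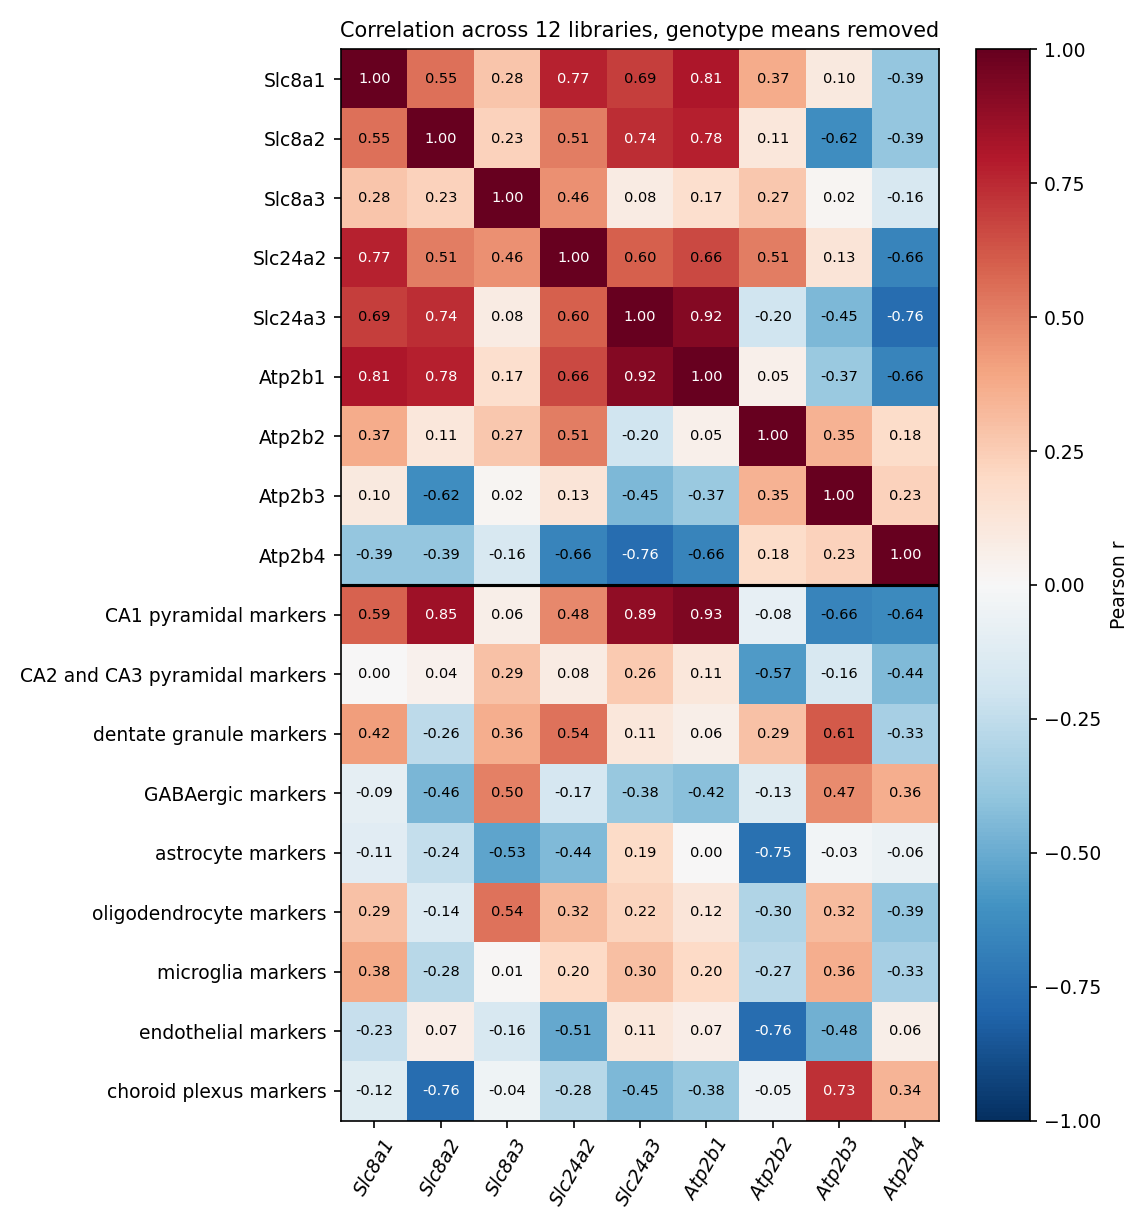
Pearson r across 12 libraries, genotype means removed, between members (upper block) and between members and the mean log2 CPM of 9 marker lists (lower block). Slc8a1, Slc8a2, Slc24a2, Slc24a3 and Atp2b1 are positively related to one another, with 0.92 between Slc24a3 and Atp2b1, while Atp2b4 is at -0.76 to Slc24a3.

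**Figure D5:**
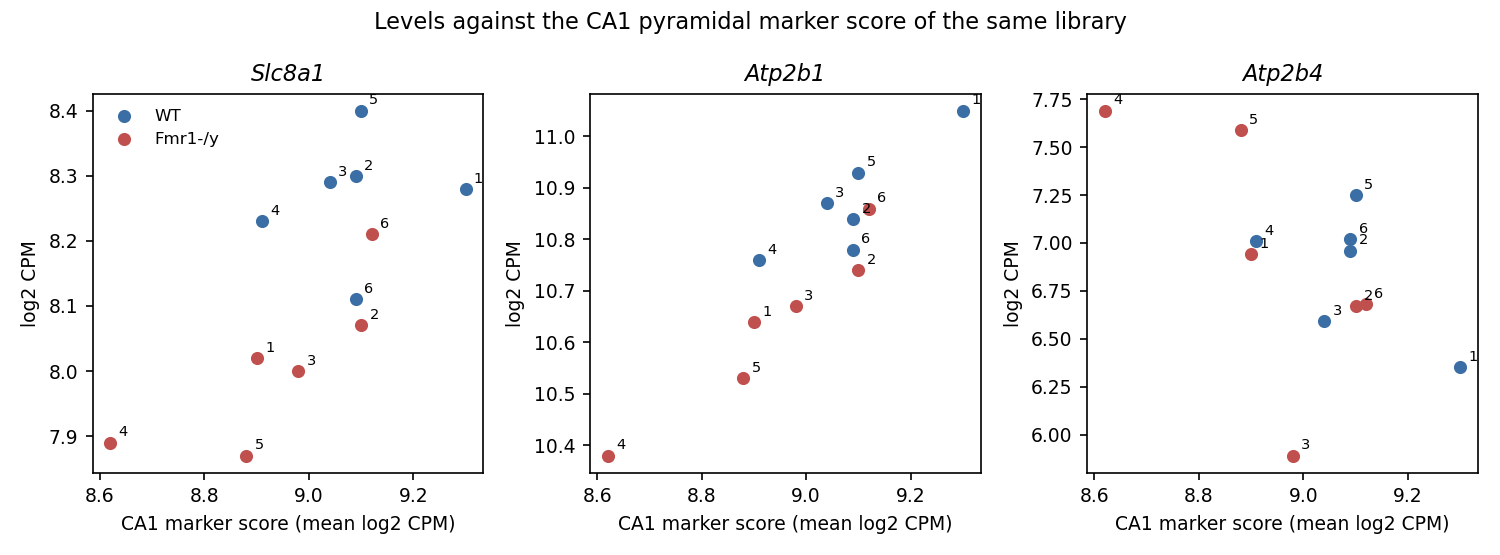
Log2 CPM of Slc8a1, Atp2b1 and Atp2b4 against the CA1 pyramidal marker score of the same library, with replicate numbers. Atp2b1 climbs with the score in both genotypes, Slc8a1 lies lower in most Fmr1-/y libraries at like scores, and Fmr1-/y 4, at the lowest score of 8.62, has the highest Atp2b4.

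Markers of other cells were present in the precipitate, and none was at 0 in any library. The summed CPM of 5 astrocyte markers was 554 to 705 in WT and 623 to 979 in Fmr1-/y libraries, with a score 0.23 higher (exact permutation test, p = 0.041, adjusted p = 0.182). The 3 choroid plexus markers, led by Ttr, summed to 6170 to 11600 CPM in WT and 8070 to 17000 CPM in Fmr1-/y libraries (score 0.44 higher, exact permutation p = 0.061, adjusted p = 0.182), and 3 endothelial markers to 19 to 29.6 and 24.1 to 38.7 CPM (score 0.35 higher, exact permutation p = 0.056, adjusted p = 0.182). The scores of CA2 and CA3 pyramidal, dentate granule, GABAergic, oligodendrocyte and microglia markers differed by 0.00, -0.21, -0.03, -0.10 and -0.01, with exact permutation p-values of 0.123 to 0.95. Slc8a2 and Atp2b3 went with the choroid plexus score in opposite directions, at r of -0.76 and 0.73, and Atp2b2 ran against the astrocyte (-0.75) and endothelial (-0.76) scores. With the choroid plexus score as a covariate the log2 fold change was -0.24 for Slc8a1 (unadjusted p = 0.0084), -0.17 for Atp2b1 (0.066) and -0.11 for Slc24a3 (0.224). The mean choroid plexus score was itself higher in Fmr1-/y libraries, so this fit cannot separate cell composition from genotype either. The part of cell composition in the differences of the members was not tested.

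The genes whose level followed Slc8a1 most closely within genotype, among 13767 with a mean of at least 1 CPM, were Epha5 (r = 0.94), a receptor for ephrin-A ligands, Cacnb2 (0.89), an auxiliary subunit of voltage-gated calcium channels, the guanine nucleotide exchange factor Arhgef11 (0.88), the Rac exchange factor Dock4 (0.88) and the M-current potassium channel Kcnq3 (0.87). All 5 had a fitted change below 0, beside 8670 of the 17823 genes tested. It was -0.17 for Epha5 (edgeR unadjusted p = 0.012), -0.23 for Dock4 (0.0032) and -0.52 for Kcnq3 (0.00023), and it was -0.14 for Cacnb2 (0.054) and -0.12 for Arhgef11 (0.068). For Atp2b4, looked up after its spread was seen, the closest was Kctd4 (r = 0.92), then Amz1, Krt77 and Cdh13 (0.91 each) and Zfp941 (0.90). For both genes these are the highest of 13767 correlations over 12 libraries. Values this high can come from such a choice alone, and no relation between these genes was tested.

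Genes that work beside the members were taken as 34 genes in 6 lists: other exchangers, pump partners, the sodium pump, intracellular calcium pumps, mitochondrial uptake and cytosolic buffers. Of these 34, 0 passed the adjusted threshold in edgeR. In DESeq2 1 passed it, beside 0.571% of all genes tested. At an edgeR unadjusted p under 0.05, 3 were lower and 7 higher, beside 3.67% of all genes lower and 4.29% higher. Their median change was 0.04, beside 0 over all genes tested. Values below are edgeR log2 fold changes with unadjusted p.

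The sodium pump keeps the sodium gradient on which the exchangers run. Its beta subunit Atp1b3 was at 0.22 (unadjusted p = 0.02), from 67.8 ± 5.73 CPM in WT to 79 ± 11 CPM in Fmr1-/y libraries. The regulator Fxyd1 was at 0.35 (unadjusted p = 0.0098), from 47.5 ± 7.66 to 60.8 ± 12.2 CPM, and the regulator Fxyd7 at -0.32 (unadjusted p = 0.0015), from 37.3 ± 1.79 to 29.9 ± 3.89 CPM. These genes thus lay on both sides of 0, and the astrocyte score given above was also higher in Fmr1-/y libraries. Its part in those values was not tested.

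Of the 6 pump partners, Bsg (basigin) was at 0.26 (unadjusted p = 0.0044), from 415 ± 27.5 CPM in WT to 496 ± 65.9 CPM in Fmr1-/y libraries. The astrocyte, choroid plexus and endothelial scores given above were also higher, none at an adjusted p under 0.05. Their part in the value of Bsg was not tested. Nptn (neuroplastin), at 554 ± 54.8 and 545 ± 45.9 CPM, was at -0.02 (unadjusted p = 0.748), and calmodulin's most abundant gene Calm2 at -0.10 (unadjusted p = 0.32). Among 4 other exchangers, Slc8b1, the mitochondrial sodium/calcium exchanger, was at 0.28 (unadjusted p = 0.027) from a low level of 5.69 ± 0.377 CPM, and the most abundant, Slc24a4, at -0.15 (unadjusted p = 0.243) from 14 ± 2.06 CPM.

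Among the 5 intracellular calcium pumps, Atp2a2, the SERCA2 pump that fills the endoplasmic reticulum, was at -0.15 (unadjusted p = 0.011), from 817 ± 38.6 CPM in WT to 739 ± 21.8 CPM in Fmr1-/y libraries. The muscle pump Atp2a1 was at 1.47 (unadjusted p = 0.039) but at only 0.177 ± 0.14 and 0.492 ± 0.571 CPM, a difference carried largely by Fmr1-/y 2. Of 6 genes of mitochondrial uptake and 3 cytosolic buffers, 0 were under 0.05. The most abundant of the buffers was Calb1 at 0.08 (unadjusted p = 0.448).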

How the data were processed

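The authors prepared stranded poly(A) libraries from HA-immunoprecipitated ribosomes, pooled 4 libraries per sequencing lane, aligned reads to mm10 with TopHat2 2.1.1 and Bowtie2 2.2.8, discarded alignments with more than 3 mismatches, and counted reads per gene on the gene's strand with HTSeq 0.6.1p1 (union mode, UCSC gene models). They deposited raw counts, whole numbers for 24079 genes in 12 libraries, which were used as such. Lanes are not given in the labels, so lane could not be separated from genotype. Genotype came from sample titles.

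Genes with at least 15 reads in total (17823) were scaled by TMM and tested with edgeR 4.0.16 quasi-likelihood in R 4.3.3, adjusted by Benjamini-Hochberg with a threshold of 0.05. DESeq2 1.42.0 and limma voom 3.58.1, other filters and scalings, each library left out, marker scores as covariates and a replicate block were alternatives. The SE is the fold change divided by the square root of F, and 95% intervals use the fit's degrees of freedom. Log2 CPM used a prior count of 2. Marker scores were compared by exact permutation of libraries. Scripts were tested on simulated data. p-values measure the spread between pools.

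Named genes were the 9 members, from each pathway list those with an unadjusted p under 0.05 and the most abundant one, and the 5 genes most like Slc8a1. Some of the genes this rule names are not reported here. Members and lists were chosen with earlier results of these data known. Genomic spans and upstream sequence are from RefSeq (GRCm38.p6), lengths from GENCODE vM21 (the same assembly, not the authors' gene models). Protein sequences were not analysed here.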

Additional observations from a re-analysis of the deposited data

Results flagged for a closer look

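In a group of 6 libraries, the highest or lowest value was marked where its gap to the nearest other, divided by the group's whole range, exceeded Dixon's 95% critical value for 6 values. This was the case in 7 of 74 groups of named genes and marker scores, beside 3.7 that chance gives at 1 in 20. The groups are not independent, as genes chosen for their likeness to Slc8a1 are among them. Among the members, Slc24a3 in WT 1 measured 368 CPM with the other 5 WT libraries at 310 to 328 CPM (gap over range 0.692).

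Among genes that followed Slc8a1, WT 6 was low for Cacnb2 (68.2 CPM, others 75.4 to 79.4, 0.644) and for Dock4 (208 CPM, others 234 to 246, 0.682). It was also the lowest WT library for Slc8a1. Kcnq3 in Fmr1-/y 6 was 11.5 CPM, with the others at 7.90 to 9.20 CPM (0.643), and Fmr1-/y 6 was the highest Fmr1-/y library for Slc8a1. These are the libraries in which the genotypes overlapped for that gene. Cacnb2, Dock4 and Kcnq3 were chosen because they followed Slc8a1 within genotype. Extremes shared with it follow from that choice and add no separate observation.

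Among the pathway genes, Fxyd1 in Fmr1-/y 1 measured 84.5 CPM with the others at 52.5 to 63.2 CPM (0.665). Atp2a1 in Fmr1-/y 2 measured 1.64 CPM with the others at 0.125 to 0.361 CPM (0.845). The CA2 and CA3 pyramidal marker score of WT 4 was 4.98, with the others at 4.79 to 4.84 (0.752).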

How the results depend on the processing

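Of 198 log2 fold changes of the 9 members recomputed under 22 alternatives, 185 kept their direction and their side of the adjusted threshold and 12 reversed. Slc8a1 moved to an adjusted p of 0.047 in DESeq2 (log2 fold change -0.26). DESeq2 called 84 genes and 1 member in place of 4 and 0. With 1 library left out, Atp2b3 lay between -0.05 and 0.02 and Atp2b4 between -0.04 and 0.29, and only some of these fits reversed. Atp2b3 reversed to 0.01 with library totals, 0.02 without Fmr1-/y 2 and 0.01 without WT 4. Without Fmr1-/y 5 or WT 5 it rounded to 0 on the other side. Atp2b4 reversed to -0.04 without Fmr1-/y 4 and rounded to 0 on the other side without Fmr1-/y 5. It was -0.30 without Fmr1-/y 4 and 5, -0.24 with the CA1 covariate and -0.10 with the choroid plexus covariate. Slc8a2 reversed to 0.04 and 0.06 with those covariates.

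With 1 library left out, edgeR called 2 to 6 genes, 0 of them members, and 2 to 4 members were lower at an unadjusted p under 0.05. Without Fmr1-/y 4 and 5 there were 2 genes and 1 such member, with the CA1 covariate 2 genes and with the choroid plexus covariate 1 gene and 1 such member. The cause was not tested. The covariate fits, the fit without both libraries and the DESeq2 fits with 1 library left out were added after the data were seen. Other scalings moved the median of all genes by at most 0.02.

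Same-numbered WT and Fmr1-/y libraries had deviations correlated between -0.08 and 0.09 over all genes, between -0.24 and 0.35 over genes with a mean log2 CPM of at least 1, and between -0.44 and 0.60 over those of at least 5, where pairs 1, 3 and 4 were at 0.38, 0.44 and 0.60. As some pairs were below 0.1 in each set, the numbers were not taken to pair the libraries. With the number as a replicate block edgeR called 4 genes, all 4 shared with the unblocked fit, and 3 members were lower at an unadjusted p under 0.05. With 6 pools a genotype, changes within the intervals given for Slc8a3 and Atp2b4 could not be resolved. The planned comparison of member protein sequences was not run.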
